A study of Zanthoxylum armatum with 15 samples.

Results

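Leaf buds and stems of *Zanthoxylum armatum* (green Sichuan pepper, Rutaceae) were compared unigene by unigene. All 3 leaf bud libraries and all 3 stem libraries were used, 6 of the 15 RNA-seq libraries of the series, and every unigene that passed a filter on low counts was a member of the comparison: 57488 of the 111318 unigenes of the authors' assembly. The pair was taken because leaf buds and stems were the most alike of the organs sampled. Leaf buds were harvested from trees of the cultivar 'Hanyuan putaoqing', and so were stems, with no treatment in either group, and each replicate mixed material of 3 plants of the same harvest. Mature leaves, fruits and roots of the same cultivar, also 3 libraries each, served as further points of reference.

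A leaf bud packs a growing apex and young, folded leaves. Its cells divide and expand, and its outer cell layer lays down a cuticle of cutin and wax while phenolic compounds accumulate in the young tissue. A stem carries older tissue in which vessels and fibres have thickened their walls with lignin, a polymer made from phenylpropanoid alcohols that peroxidases join together. Auxin and cytokinin are the hormones best known for setting growth at the apex and in the vascular tissue.

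Estimated counts summed to 21793417 to 24081708 in leaf bud libraries (median 23301738) and to 21346216 to 23346838 in stem libraries (median 22348795). Counts were scaled by edgeR's TMM factors, 1.11 to 1.18 in leaf buds and 1.07 to 1.08 in stems. Replicates of leaf buds spread more than those of stems: the biological coefficient of variation was 0.169 in leaf buds and 0.112 in stems, and the chi-square per unigene between replicates was 4.73 to 8.33 in leaf buds and 2.09 to 6.90 in stems, where sampling noise alone gives about 1. Replicate 3 stood apart among leaf buds for part of the unigenes, as described below. Among stems replicate 3 also lay apart. Its chi-square per unigene was 6.71 against replicate 1 and 6.90 against replicate 2, while replicates 1 and 2 gave 2.09 with each other. Levels are given in FPKM, a fragment number corrected for the length of the unigene and the size of the library, in the order of replicates 1, 2 and 3. The labels were checked against marker lists. The 20 unigenes held of the DNA replication pathway, a list typical of dividing tissue, summed to 386 to 491 FPKM in leaf buds, 202 to 211 FPKM in stems and 53.5 to 55.3 FPKM in mature leaves. In sum, the 3 rbcS unigenes (small subunit of Rubisco) were far below their level in mature leaves in both organs. They summed to 1890 to 2492 FPKM in leaf buds, 930 to 1788 FPKM in stems and 34133 to 35237 FPKM in mature leaves. The rbcL unigene (large subunit) was faint, at 2.59 to 3.29, 2.15 to 4.48 and 6.67 to 7.09 FPKM in the same order. The 71 lignin and phenylpropanoid enzymes held, a list taken for lignifying tissue, summed to 1744 to 2091 FPKM in leaf buds. In stems they summed to 1331 to 1451 FPKM, so this list did not set stems above leaf buds. The lists used hold no gene that marks stems alone.

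Of the 57488 unigenes tested, 10722 (18.7%) were differentially expressed genes (DEGs). Both an absolute log2 fold change greater than 1 and a Benjamini-Hochberg adjusted p below 0.05, from the quasi-likelihood test of edgeR, were required. The log2 fold change is of leaf buds over stems, and its median over all unigenes tested was 0.08. Leaf buds and stems each hold several tissues, and in such material a smaller share of a cell type cannot be told apart from less RNA per cell. There were 6114 DEGs higher in leaf buds (10.6% of the unigenes tested) and 4608 lower in leaf buds (8.02%). The changes toward leaf buds were the steeper ones, while the unigenes lower in leaf buds were the more abundant. The median log2 fold change was 2.19 for the higher DEGs and -1.78 for the lower ones, or 2.14 and -1.77 with unigenes at 0 in an organ set to their lower bound. The median mean level was 3.64 FPKM in leaf buds for the higher DEGs and 8.68 FPKM in stems for the lower DEGs. A mean of at least 10 FPKM in the organ where they were higher was reached by 1637 higher and 2143 lower DEGs. At an absolute log2 fold change over 2 there were 3300 higher and 1908 lower DEGs, and over 5 there were 1142 higher and 266 lower. All 3 leaf bud libraries lay above all 3 stem libraries for 26% of the unigenes tested and below them for 23%. Among the DEGs this held for 5591 of the 6114 higher and 4550 of the 4608 lower ones.

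**Figure D1:**
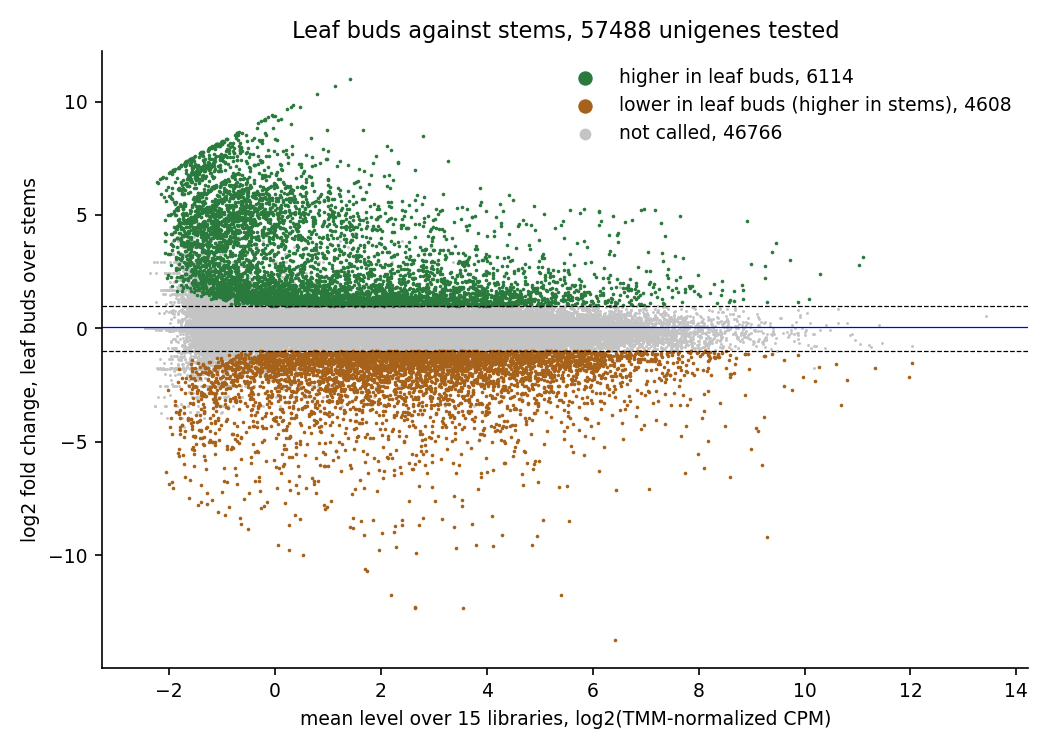
Log2 fold change of leaf buds over stems (y axis) against the mean level over all 15 libraries as log2 of TMM-normalized CPM (x axis), 1 point per unigene, 57488 in all. The 6114 DEGs higher in leaf buds are green and reach the largest fold changes at low levels, the 4608 DEGs lower in leaf buds are brown, dashed lines mark a log2 fold change of 1 and -1, and the thin blue line marks the median of 0.08.

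With the same thresholds and the same fit, the other pairs of organs gave more calls. Leaf buds differed from fruits for 29.1% of the unigenes tested, from mature leaves for 33.7% and from roots for 41.4%. Stems differed from fruits for 22.5%, from mature leaves for 33.9% and from roots for 35.3%. The pairs without leaf buds or stems gave 26.2% (mature leaves against fruits), 33.9% (fruits against roots) and 39.9% (mature leaves against roots). Pearson's r between libraries across unigenes, on log10(FPKM + 1), had a mean of 0.910 over the 9 pairs of a leaf bud and a stem library, against 0.948 among leaf bud libraries and 0.973 among stem libraries. These values describe why the pair was chosen and are no test of it, since pairs of organs share libraries.

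The other organs showed where the DEGs had their highest level. Of the higher DEGs, 63.8% had their highest mean in leaf buds, 20.2% in mature leaves, 8.78% in fruits and 7.16% in roots. Of the lower DEGs, 40.5% had their highest mean in stems and 29.4% in roots, with 15.6% in mature leaves and 14.5% in fruits. Over all unigenes tested, leaf buds were highest for 21.1%, stems for 12.7% and roots for 27.5%. The lower DEGs were therefore more often highest outside stems than the higher DEGs were outside leaf buds, a description that was not tested.

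**Figure D2:**
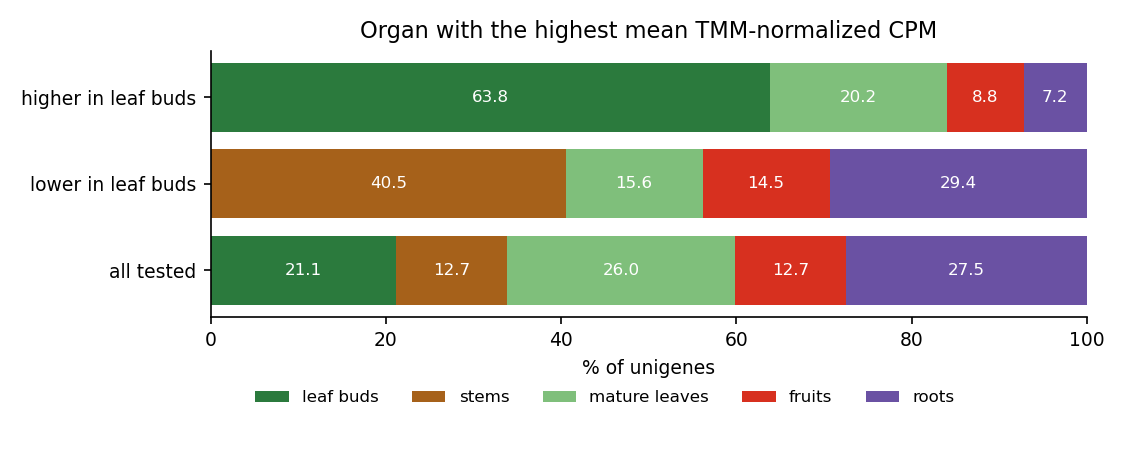
Share of unigenes (x axis, percent) whose highest mean TMM-normalized count lay in each organ, for the DEGs higher in leaf buds, the DEGs lower in leaf buds and all unigenes tested, with colours for the 5 organs. Leaf buds take 63.8% of the top bar and stems 40.5% of the middle one, where roots take a further 29.4%.

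Gene names were available for part of the unigenes, from the authors' annotation tables of organ-specific unigenes and of unigenes changed in fruits. These were sorted by name into 18 role groups. Since the authors chose the tables on these same libraries, the direction of a group is not independent evidence, and its count is read only beside the shares of 10.6% and 8.02% among all unigenes tested. The groups are described below by role, with the members that showed the largest changes.

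**Figure D3:**
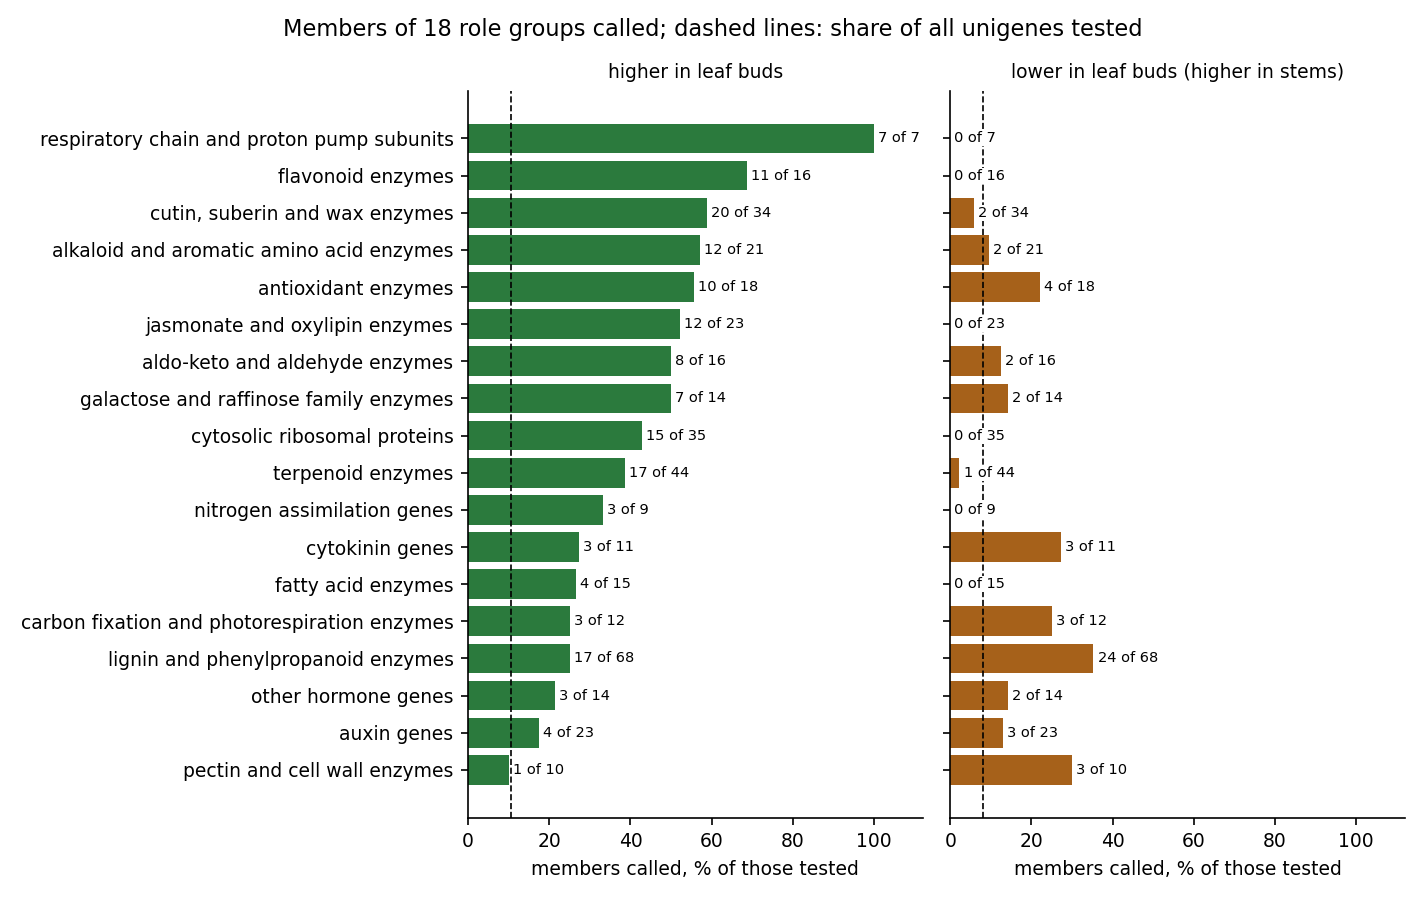
Members called in each of the 18 role groups, as percent of the members tested (x axes), higher in leaf buds on the left and lower in leaf buds on the right, with counts beside the bars. Dashed lines mark the shares among all unigenes tested, 10.6% and 8.02%; flavonoid enzymes reach 11 of 16 on the left, and lignin enzymes 24 of 68 on the right.

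Flavonoid enzymes stood at high levels in leaf buds. Of 16 members, all tested, 11 were higher in leaf buds, none was lower and 5 were not called, with a median log2 fold change of 2.18. The 20 unigenes held of the authors' flavonoid biosynthesis pathway list, 19 tested, were more mixed, with 7 higher, 4 lower and a median log2 fold change of 0.32. Chalcone synthase (CHS), which makes the first flavonoid skeleton, was called for 6 of 8 unigenes and so were F3H, DFR, both anthocyanidin synthase unigenes and anthocyanidin reductase. Flavonol synthase (FLS, 2 unigenes) and a flavonoid hydroxylase (CYP75A) were not called, with log2 fold changes of 0.32, 0.44 and -0.40. Anthocyanidin synthase (ANS), Cluster-12235.40481, had 733, 533 and 532 FPKM in leaf buds, against 56.4, 55.2 and 55.7 FPKM in stems. Dihydroflavonol reductase (DFR), Cluster-12235.39180, had 393, 285 and 282 FPKM in leaf buds, against 26.9, 29.6 and 30.9 FPKM in stems. In both, every leaf bud library was far above every stem library, with replicate 1 the highest. The log2 fold change was 3.36 ± 0.18 (SE) for ANS with an adjusted p of 1.1e-11, and 3.39 ± 0.20 for DFR with an adjusted p of 1.9e-10. Mature leaves held little of either, with a mean of 3.04 FPKM for this ANS unigene and 3.71 FPKM for DFR, and fruits held 21.9 and 37.1 FPKM.

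Anthocyanidin reductase (ANR), which turns anthocyanidins into the building units of condensed tannins, moved with them. It was chosen after its values were seen: Cluster-12235.39469 had 464, 347 and 340 FPKM in leaf buds, against 32.9, 35.4 and 39.7 FPKM in stems. Its log2 fold change of 3.34 ± 0.22 (SE, edgeR adjusted p 3e-10) was close to those of DFR and ANS. Among the CHS unigenes the largest change was in a faint one, Cluster-12235.10864, at 3.17, 2.20 and 1.41 FPKM in leaf buds, against 0.21, 0 and 0.14 FPKM in stems. It did not overlap between the organs and had a log2 fold change of 4.17 ± 0.70 (edgeR adjusted p 0.0001). Its mean was at most 0.30 FPKM in the other organs. It passed the filter through leaf buds and had to differ, so its call is a description only. The CHS unigenes together summed to 360, 274 and 296 FPKM in leaf buds, against 85.6, 86.0 and 88.7 FPKM in stems.

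Not every CHS unigene followed. Of the 2 CHS unigenes for which the authors designed qRT-PCR primers, Cluster-12235.52890 was called, at 3.99, 4.17 and 4.67 FPKM in leaf buds and 0.92, 1.27 and 1.43 FPKM in stems (log2 fold change 1.74 ± 0.22, edgeR adjusted p 2.5e-06). Cluster-12235.42665 was at 1.11, 0.77 and 0.80 FPKM in leaf buds and 0.50, 0.53 and 1.31 FPKM in stems, which overlapped (edgeR adjusted p 0.84), while its mean in fruits was 5276 FPKM. The primers designed for each copy, shown 5′ to 3′ because these copies of 1 enzyme gave different results here, are:
Cluster-12235.52890 forward: atcctggaggcaaaagcattcta
Cluster-12235.52890 reverse: atttccgtactcgctcagcacat
Cluster-12235.42665 forward: cttatccagaaccgtgcctcag
Cluster-12235.42665 reverse: aagtataaacaggacgcttggacc

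Enzymes of the cuticle were also called mostly toward leaf buds. Of 35 members of the cutin, suberin and wax group, 34 were tested, of which 20 were higher in leaf buds, 2 were lower and 12 were not called. The median log2 fold change was 1.98, or 1.56 with members at 0 in an organ set to their bound. The 21 unigenes held of the authors' cutin, suberin and wax pathway list, 18 of them tested, gave 10 higher and 4 lower. In CER1, which makes wax alkanes in Arabidopsis, all 7 unigenes were higher in leaf buds, with log2 fold changes of 2.98 to 3.51. Some of the 7 have consecutive identifiers (Cluster-12235.44345, Cluster-12235.44346 and Cluster-12235.44347). As the counting could split fragments between closely similar unigenes, the 7 may not be separate observations. Together the CER1 unigenes summed to 59.3, 44.8 and 37.6 FPKM in leaf buds, against 4.68, 6.21 and 3.93 FPKM in stems.

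HOTHEAD (named ACE, HTH in the annotation), an Arabidopsis cuticle gene required to keep young organs from fusing, had 41.4, 30.9 and 26.8 FPKM at Cluster-12235.21198 in leaf buds, against 1.83, 0.94 and 1.21 FPKM in stems. No other organ had a mean over 2.98 FPKM for it. Its log2 fold change was 4.57 ± 0.22 (SE, edgeR adjusted p 1.5e-11). The ketoacyl-CoA synthases (KCS), which lengthen fatty acids for wax and suberin, were split between copies. Of 8 KCS unigenes tested 5 were higher and 1 was lower in leaf buds. Cluster-12235.10961 had 4.75, 2.75 and 2.59 FPKM in leaf buds, against 0.08, 0.02 and 0.05 FPKM in stems (log2 fold change 5.85 ± 0.53, edgeR adjusted p 2.1e-07). Cluster-12235.44549, which the authors matched to Arabidopsis KCS6, had 8.84, 6.86 and 5.76 FPKM in leaf buds, against 18.2, 17.4 and 15.7 FPKM in stems (log2 fold change -1.33 ± 0.14, edgeR adjusted p 1.7e-07). The levels of these copies of the enzyme lay in opposite directions, each without overlap. Cluster-12235.10961 was near 0 in all other organs, passed the filter through leaf buds and had to differ, so its call is a description only.

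The remaining call toward stems in this group was HHT1, which transfers ferulic acid onto suberin monomers. Cluster-12235.21255 had 5.0, 3.97 and 4.59 FPKM in leaf buds, against 11.3, 7.15 and 10.2 FPKM in stems (log2 fold change -1.14 ± 0.17, edgeR adjusted p 4e-05). A unigene named PPT, Cluster-18229.0, had 2.03, 0.70 and 1.69 FPKM in leaf buds and was at 0 in all stem libraries. Taking 3 counts over the 3 stem libraries as the limit, its leaf bud level was at least 22.5-fold higher. PPT was near 0 in the other organs too, passed the filter through leaf buds and had to differ, so its call is a description only.

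The lignin and phenylpropanoid group held calls in both directions. Of 71 members 68 were tested, of which 17 were higher in leaf buds, 24 were lower and 27 were not called, with a median log2 fold change of -0.43. Of the 24 lower members, 15 came from the authors' list of unigenes that set leaf buds apart, so that for these the direction was partly chosen. The group's summed level went the other way, at 1805, 1744 and 2091 FPKM in leaf buds, against 1331, 1451 and 1431 FPKM in stems. All 3 unigenes of 4-coumarate-CoA ligase (4CL), an entry enzyme of the pathway, were higher in leaf buds, with log2 fold changes of 1.23 to 2.25. Of 13 unigenes of HCT, the shikimate transferase of the lignin route, 4 were higher and 2 lower.

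Peroxidases, which couple lignin monomers in the wall, were lower for 8 of 14 unigenes and higher for 3 in leaf buds, and summed to 50.3, 54.7 and 71.5 FPKM in leaf buds, against 132, 139 and 162 FPKM in stems. For the peroxidase sum every leaf bud library was below every stem library. Of 8 unigenes of β-glucosidase 4 were lower and none was higher.

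The steepest difference was in a peroxidase, Cluster-12235.3193, at 0, 0.07 and 0 FPKM in leaf buds, against 20.3, 19.9 and 24.0 FPKM in stems. Only 2 counts were seen in the 3 leaf bud libraries, and the ratio of stems over leaf buds was 930, with a 95% exact interval for counting error of 257 to 7682. The fitted log2 fold change was -9.57 ± 0.43 (SE, edgeR adjusted p 1.2e-12). Its level in roots was higher still, at a mean of 99.3 FPKM. Another peroxidase, Cluster-12235.2960, had 0.26, 0.11 and 0.06 FPKM in leaf buds, against 9.54, 8.04 and 8.29 FPKM in stems (log2 fold change -5.91 ± 0.26, edgeR adjusted p 1.1e-12). An HCT unigene, Cluster-12235.4447, had 0.23, 0.19 and 0.21 FPKM in leaf buds, against 5.51, 7.60 and 9.29 FPKM in stems, and 279 FPKM in roots (log2 fold change for leaf buds over stems -5.18 ± 0.27, edgeR adjusted p 1.1e-11). These 3 unigenes had in common that stems were far above leaf buds and below roots.

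The opposite direction was taken by other members. A peroxidase, Cluster-12235.21699, had 7.35, 6.63 and 9.75 FPKM in leaf buds, against 0.92, 0.70 and 0.93 FPKM in stems (log2 fold change 3.13 ± 0.23, edgeR adjusted p 1.6e-09). REF1, an aldehyde dehydrogenase that yields ferulic and sinapic acid in Arabidopsis, was at 1.26, 1.0 and 1.32 FPKM in leaf buds, against 0.12, 0.10 and 0.26 FPKM in stems at Cluster-12235.52658 (2.80 ± 0.41, adjusted p 4.9e-05). These members were faint and did not carry the summed level of the group. The most abundant members called, chosen after their values were seen, were an HCT, a coumaroyl ester hydroxylase (CYP98A) and a cinnamyl alcohol dehydrogenase. HCT Cluster-12235.39072 had 302, 285 and 230 FPKM in leaf buds, against 68.1, 77.2 and 66.2 FPKM in stems. CYP98A Cluster-12235.45033 had 155, 151 and 145 FPKM in leaf buds, against 34.6, 39.7 and 39.7 FPKM in stems. The dehydrogenase Cluster-12235.60197 had 157, 117 and 99.4 FPKM in leaf buds, against 19.5, 18.7 and 21.6 FPKM in stems. Each was a DEG without overlap, with log2 fold changes of 1.91 ± 0.13, 1.91 ± 0.11 and 2.58 ± 0.15. The other CYP98A unigene, Cluster-12235.40262, also chosen after its values were seen, was more abundant and not called, with 347, 339 and 582 FPKM in leaf buds and 435, 466 and 489 FPKM in stems (-0.22 ± 0.16, edgeR adjusted p 0.31).

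An HCT unigene with primers, Cluster-12235.41896, was close to the threshold. It had 4.59, 5.90 and 10.2 FPKM in leaf buds, against 2.61, 2.90 and 4.15 FPKM in stems (log2 fold change 1.01 ± 0.22, edgeR adjusted p 0.0012), and it lost the call without leaf bud replicate 3 (0.63), stem replicate 1 (0.86) or stem replicate 2 (0.94), as well as in DESeq2, with DESeq2 size factors, with the replicate block, with no filter and with the 6 libraries alone.

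Wall enzymes other than those of lignin were few. Of 10 pectin and cell wall members tested, 1 was higher in leaf buds and 3 were lower. Of the 3 lower members, 2 came from the authors' leaf bud list, made on these libraries, so that their difference was partly chosen. Pectinesterase, which removes methyl groups from pectin, was lower for 2 of 4 unigenes. Cluster-12235.20224 had 0.16, 0.15 and 0.21 FPKM in leaf buds, against 10.03, 12.8 and 8.87 FPKM in stems (log2 fold change -5.99 ± 0.22, edgeR adjusted p 1.1e-13). Cluster-12235.20223, the preceding identifier, had 0.16, 0.03 and 0.09 FPKM in leaf buds, against 3.27, 4.14 and 3.60 FPKM in stems (-5.34 ± 0.30, adjusted p 3.1e-11). As the counting could split fragments between closely similar unigenes, their separate levels are uncertain. Both were highest in mature leaves, with means of 45.9 and 20.4 FPKM. A pectate lyase (pel), Cluster-12235.45873, was abundant in both organs, with 71.6, 65.9 and 73.9 FPKM in leaf buds, against 170, 175 and 193 FPKM in stems (-1.43 ± 0.09, adjusted p 2.1e-10). The member toward leaf buds was RGP, a UDP-arabinose mutase that feeds arabinose into wall polymers. Cluster-12235.34008 had 48.9, 37.8 and 51.6 FPKM in leaf buds, against 5.91, 7.74 and 5.89 FPKM in stems (2.76 ± 0.18, adjusted p 2e-10), the highest of the 5 organs.

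**Figure D4:**
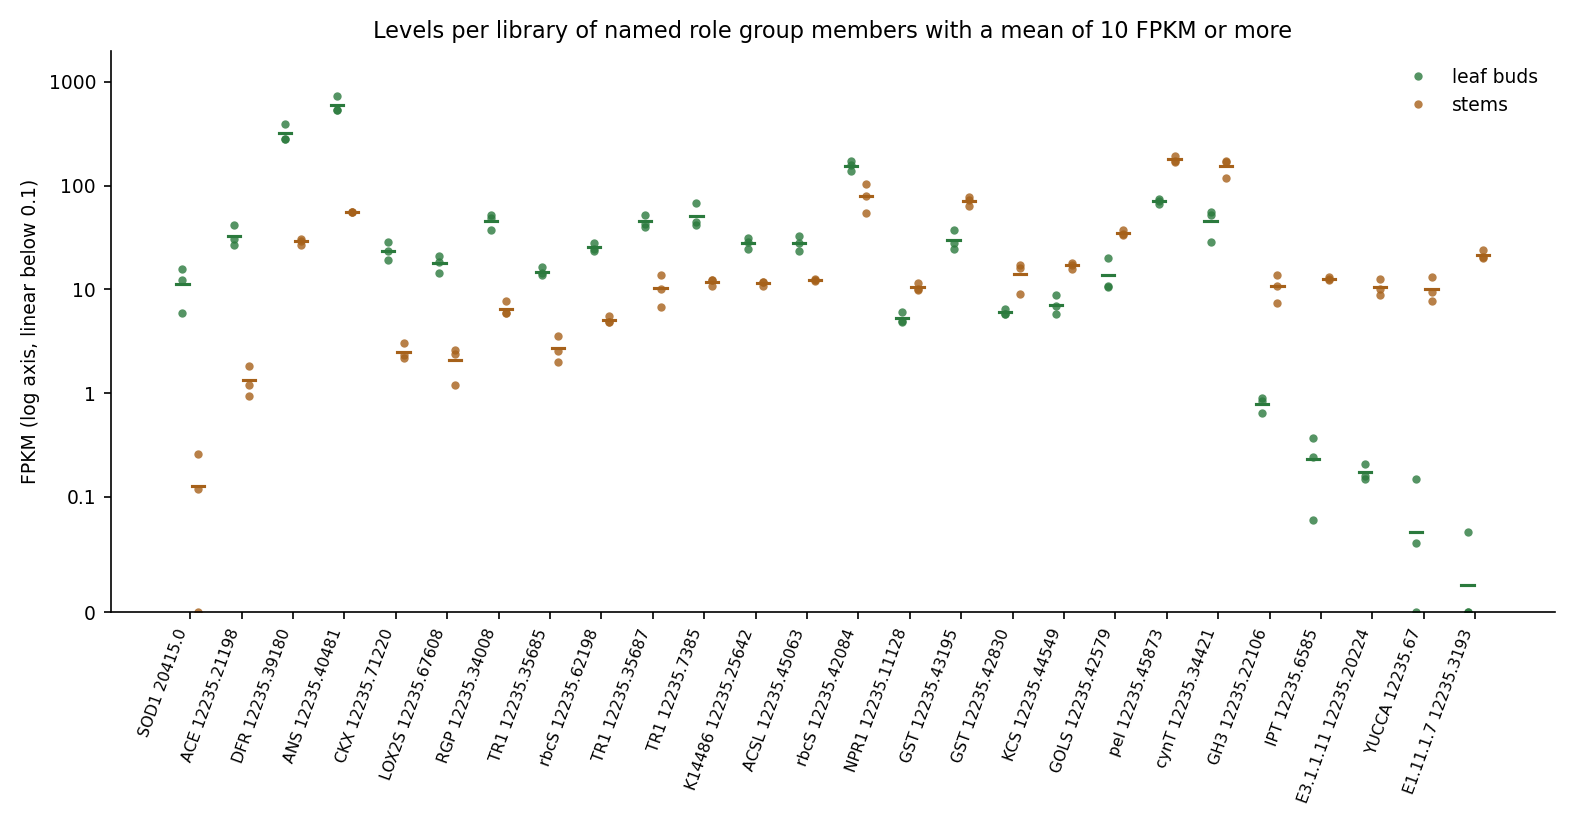
Level per library (y axis, FPKM on a log axis that is linear below 0.1) of the role group members chosen by rule with a mean of at least 10 FPKM in the higher organ, sorted by log2 fold change (x axis, name and identifier). Dots are the 3 leaf bud libraries (green, left) and the 3 stem libraries (brown, right) and short lines their means; the organs do not overlap for any unigene shown, and peroxidase Cluster-12235.3193 is at or near 0 in leaf buds, against 19.9 to 24.0 FPKM in stems.

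Hormone genes did not move as groups, but single members differed strongly. Of 23 auxin members tested, 4 were higher in leaf buds, 3 were lower (5 without leaf bud replicate 3) and 16 were not called, with a median log2 fold change of -0.10. Among transport and repressor families, none of the 5 AUX1/LAX importers and none of the 4 IAA repressors passed the test. The auxin-making YUCCA enzymes were called for all 3 unigenes, in both directions. Cluster-12235.67 had 0.15, 0.06 and 0 FPKM in leaf buds, against 9.46, 7.79 and 13.2 FPKM in stems (log2 fold change -7.10 ± 0.48, edgeR adjusted p 1.4e-09), and no other organ had a mean over 0.03 FPKM. This unigene passed the filter through stems and had to differ, so its call is a description only. Cluster-12235.6192 had 8.85, 9.69 and 7.0 FPKM in leaf buds, against 1.53, 1.74 and 1.79 FPKM in stems (2.26 ± 0.22, adjusted p 7.1e-08). Cluster-23648.1 had 0.65, 0.92 and 0.28 FPKM in leaf buds and was at 0 in all stem libraries, at least 23.4-fold higher in leaf buds. Each organ thus held a YUCCA unigene that the other nearly lacked.

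GH3 enzymes, which join auxin to amino acids, were split in the same way. Cluster-12235.22106 had 0.84, 0.64 and 0.90 FPKM in leaf buds, against 10.8, 7.46 and 13.8 FPKM in stems (log2 fold change -3.82 ± 0.31, edgeR adjusted p 6.4e-09). Cluster-12235.66430 had 0.47, 0.36 and 0.32 FPKM in leaf buds and was at 0 in all stem libraries, at least 13.99-fold higher in leaf buds. An auxin response factor (ARF), Cluster-12235.25642, had 31.2, 24.8 and 28.8 FPKM in leaf buds, against 10.9, 11.8 and 11.7 FPKM in stems (1.27 ± 0.19, adjusted p 1.7e-05).

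SAUR genes respond early to auxin. Of 6 SAUR unigenes tested 1 was lower in leaf buds, Cluster-12235.28227, with 0.27, 0.44 and 0.15 FPKM in leaf buds, against 3.06, 4.23 and 2.98 FPKM in stems (log2 fold change -3.49 ± 0.68, edgeR adjusted p 0.00045). A further 2 did not pass the filter and were not tested. Cluster-4895.0 was at 0 in all leaf bud libraries and at 1.99, 2.23 and 4.62 FPKM in stems, and Cluster-5201.0 was at 0 in leaf buds and at 1.21, 1.95 and 2.81 FPKM in stems. Both belong, with YUCCA Cluster-12235.67, YUCCA Cluster-23648.1 and GH3 Cluster-12235.66430, to the 5 unigenes that the authors listed as setting stems apart. Of these 5, then, 3 were at or near 0 in leaf buds and 2 were at 0 in stems.

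Cytokinin genes gave 3 higher and 3 lower of 11 tested. Isopentenyltransferase (IPT), the first enzyme of cytokinin synthesis, was lower in leaf buds for 3 of 4 unigenes, all from the authors' list of unigenes that set leaf buds apart. Cluster-12235.6585 had 0.24, 0.08 and 0.37 FPKM in leaf buds, against 12.2, 13.2 and 12.5 FPKM in stems (log2 fold change -5.84 ± 0.30, edgeR adjusted p 8.3e-12). Cluster-12235.4640 had 0.15, 0.26 and 0.81 FPKM in leaf buds, against 7.67, 7.68 and 8.58 FPKM in stems (-4.37 ± 0.26, adjusted p 7.4e-11). Cluster-12235.14859 had 0.60, 0.45 and 0.98 FPKM in leaf buds, against 4.15, 3.71 and 3.50 FPKM in stems (-2.55 ± 0.21, adjusted p 7e-09). None of the 3 overlapped between the organs. The fourth IPT unigene, Cluster-12235.3255, chosen after its values were seen, had 15.9, 13.5 and 0 FPKM in leaf buds, against 0.19, 0.06 and 0.24 FPKM in stems, so that leaf bud replicate 3 was below the stems while the others were far above. Cytokinin dehydrogenase (CKX), which breaks cytokinin down, had 23.3, 28.4 and 19.1 FPKM at Cluster-12235.71220 in leaf buds, against 2.34, 2.16 and 3.05 FPKM in stems (3.16 ± 0.17, adjusted p 1.8e-11), the highest of the 5 organs.

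Of 14 other hormone members tested, 3 were higher in leaf buds and 2 were lower. BAS1 (CYP734A1), which inactivates brassinosteroids in Arabidopsis, had 6.66, 7.10 and 5.60 FPKM at Cluster-12235.11596 in leaf buds, against 1.08, 1.06 and 1.61 FPKM in stems (log2 fold change 2.30 ± 0.22, edgeR adjusted p 4.8e-08). Gibberellin oxidase Cluster-12235.19063, named after the enzyme class that inactivates gibberellins, had 1.08, 1.04 and 1.19 FPKM in leaf buds, against 0.06, 0.02 and 0.08 FPKM in stems (4.27 ± 0.44, adjusted p 3.6e-07). A TGA transcription factor, Cluster-12235.17693, had 6.22, 6.61 and 4.76 FPKM in leaf buds, against 1.87, 1.63 and 1.35 FPKM in stems (1.79 ± 0.22, adjusted p 1.7e-06). The other direction was taken by EIN3, the ethylene transcription factor, and NPR1, a salicylic acid receptor. EIN3 Cluster-12235.1077 had 0.22, 0.12 and 0.13 FPKM in leaf buds, against 2.37, 1.96 and 2.77 FPKM in stems (-3.94 ± 0.41, adjusted p 1.9e-07). NPR1 Cluster-12235.11128 had 4.90, 4.95 and 6.13 FPKM in leaf buds, against 10.02, 9.78 and 11.6 FPKM in stems (-1.06 ± 0.14, adjusted p 5.3e-06). NPR1 was just past the fold threshold, with -0.96 under scaling by library totals, and was also not called without stem replicate 3, at -0.996. The complete brassinosteroid pathway list of 17 unigenes, 16 tested, gave 3 higher and none lower in leaf buds, of which Cluster-12235.13761 had the largest change (4.58, 5.35 and 3.27 FPKM in leaf buds, against 0.66, 0.69 and 1.03 FPKM in stems). For the 20 unigenes held of hormone signal transduction, 17 tested, none was higher and 1 was lower (2 without leaf bud replicate 3).

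Terpenoid enzymes, which build the volatile oils of this species, rose more often in leaf buds than they fell. Of 44 members tested 17 were higher, 1 was lower (0 without leaf bud replicate 3 or stem replicate 2) and 26 were not called, with a median log2 fold change of 0.80, and the 20 unigenes held of terpenoid backbone biosynthesis, 19 tested, gave 9 higher and none lower (5 higher without stem replicate 1). The changes were moderate. The group summed to 664, 736 and 737 FPKM in leaf buds, against 421, 427 and 462 FPKM in stems, with 7445 to 8704 FPKM in fruits. Deoxyxylulose phosphate synthase (dxs), the entry enzyme of the plastid route, was higher for 5 of 9 unigenes, and geranylgeranyl diphosphate synthase (GGPS) for 3 of 4. GGPS Cluster-12235.40340, which the authors matched to Arabidopsis GGPPS12, had 6.30, 6.71 and 3.83 FPKM in leaf buds, against 0.19, 0.36 and 1.18 FPKM in stems (3.20 ± 0.34, edgeR adjusted p 5.1e-07). The dxs unigene Cluster-12235.38535 had 13.4, 10.01 and 7.82 FPKM in leaf buds, against 1.43, 1.72 and 1.79 FPKM in stems (2.83 ± 0.41, adjusted p 1.6e-05). For this dxs unigene the counts were few, 31, 18 and 16 in leaf buds and 2, 3 and 3 in stems. Another, Cluster-12235.38538, had 5.86, 6.27 and 4.39 FPKM in leaf buds, against 1.72, 2.49 and 3.04 FPKM in stems (1.16 ± 0.29, adjusted p 0.0031), and lost the call without stem replicate 1 at 0.95. In all 3 the leaf bud libraries lay above the stem libraries, and all 3 were far more abundant in fruits, with means of 690, 277 and 209 FPKM. The primers designed for these unigenes, which stood far apart in level between fruits and the organs compared here, are:
Cluster-12235.38535 forward: tgaacagtgtatcaaagacaggtgg
Cluster-12235.38535 reverse: cccttccaactgccataccaa
Cluster-12235.38538 forward: tggctctttcttcttccttttcc
Cluster-12235.38538 reverse: caccatcatattggcttcctcac
Cluster-12235.40340 forward: gcctagtcttattcccaaatccaag
Cluster-12235.40340 reverse: gtgttatctcaaccatagcccgta

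Terpene synthases at the ends of the pathway were called for a few unigenes. Nerolidol synthase (NES1) Cluster-12235.5308 had 2.61, 1.96 and 1.90 FPKM in leaf buds, against 0.18, 0.29 and 0.19 FPKM in stems (log2 fold change 3.19 ± 0.25, edgeR adjusted p 8.8e-09). LUP4 Cluster-12235.70709, named after a β-amyrin synthase of triterpenoid synthesis, had 3.53, 3.03 and 3.22 FPKM in leaf buds, against 0.32, 0.52 and 0.44 FPKM in stems (2.84 ± 0.35, adjusted p 1.9e-06), and no other organ had a mean over 0.10 FPKM. The monoterpene synthase Cluster-12235.42000 was below the fold threshold, with 22.03, 16.7 and 14.4 FPKM in leaf buds, against 9.70, 7.77 and 9.89 FPKM in stems (0.91 ± 0.16, adjusted p 0.00017) and a mean of 1711 FPKM in fruits. The complete monoterpenoid list of 11 unigenes, 10 tested, gave 1 higher in leaf buds, Cluster-12235.46950, and 1 lower, Cluster-12235.64198 (15.3, 18.1 and 28.1 FPKM in leaf buds, against 48.8, 54.6 and 44.2 FPKM in stems). Without leaf bud replicate 3 this list gave 3 higher and 2 lower, and without leaf bud replicate 2, stem replicate 1 or stem replicate 2 it gave 2 lower. Diterpenoid biosynthesis, with 21 unigenes held and 19 tested, gave 1 higher (2 without leaf bud replicate 2) and 5 lower.

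Jasmonate and oxylipin enzymes were called in 1 direction. Of 27 members 23 were tested, with 12 higher in leaf buds, none lower and 11 not called, and a median log2 fold change of 1.001. Lipoxygenase (LOX2S), which oxidizes fatty acids at the head of this route, was higher for 4 of 7 unigenes, and both hydroperoxide lyase (HPL) unigenes were higher. Cluster-12235.67608 (LOX2S) had 20.8, 14.3 and 18.6 FPKM in leaf buds, against 1.21, 2.61 and 2.40 FPKM in stems (3.13 ± 0.45, edgeR adjusted p 2.1e-05), and no other organ had a mean over 0.19 FPKM. This LOX2S unigene passed the filter through leaf buds, so its call is a description only. Jasmonate methyltransferase Cluster-12235.23432 had 7.03, 5.19 and 9.15 FPKM in leaf buds, against 0.44, 0.85 and 0.97 FPKM in stems (3.15 ± 0.29, adjusted p 3.7e-08). A second unigene of that name, Cluster-12235.46490, had 6.71, 8.40 and 5.39 FPKM in leaf buds, against 0.99, 1.02 and 1.54 FPKM in stems (2.45 ± 0.20, adjusted p 7e-09). The peroxisomal enzyme MFP2, Cluster-12235.50349, had 30.2, 29.6 and 39.2 FPKM in leaf buds, against 11.1, 10.7 and 15.2 FPKM in stems (1.36 ± 0.15, adjusted p 4.8e-07).

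Among 15 fatty acid enzymes tested, 4 were higher in leaf buds and none was lower, and all 4 were acyl-CoA synthetases (ACSL), which activate fatty acids. Cluster-12235.45063, matched by the authors to Arabidopsis LACS1 (also CER8, a cuticle gene), had 33.1, 28.1 and 23.5 FPKM in leaf buds, against 12.3, 12.1 and 12.7 FPKM in stems (log2 fold change 1.11 ± 0.12, edgeR adjusted p 5e-07; without leaf bud replicate 1 it was 0.96, under the threshold). Cluster-12235.44155 (LACS6) had 28.3, 32.4 and 25.4 FPKM in leaf buds, against 12.8, 12.7 and 13.3 FPKM in stems (1.11 ± 0.13, adjusted p 1.5e-06). The synthase, reductase and desaturase members were not called. For example, fabF Cluster-12235.36948 had 46.9, 47.4 and 45.2 FPKM in leaf buds and 49.6, 49.3 and 50.9 FPKM in stems (-0.18 ± 0.09, adjusted p 0.13). The primers of the ACSL unigenes with the clearest levels are:
Cluster-12235.45063 forward: ttcgccaccacagcctttta
Cluster-12235.45063 reverse: agcaagaggcaggaaagacaga
Cluster-12235.44155 forward: ggaccaagagtgtcatagagagga
Cluster-12235.44155 reverse: ggttgatggaacagttggagagt

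Enzymes of alkaloids and aromatic amino acids were mostly higher in leaf buds, with 12 higher, 2 lower and 7 not called of 21 and a median log2 fold change of 1.19. Tropinone reductase (TR1), a name given to short-chain reductases that act on tropane alkaloids in nightshades, was higher for 6 of 9 unigenes. Cluster-12235.35687 had 42.9, 52.7 and 40.2 FPKM in leaf buds, against 10.2, 13.7 and 6.79 FPKM in stems (2.14 ± 0.21, edgeR adjusted p 1.9e-07). Cluster-12235.7385 had 41.5, 44.4 and 68.2 FPKM in leaf buds, against 12.2, 12.5 and 10.8 FPKM in stems (2.04 ± 0.16, adjusted p 5.5e-08), and no other organ had a mean over 1.31 FPKM. Cluster-12235.35685 had 16.5, 14.3 and 13.8 FPKM in leaf buds, against 3.59, 2.54 and 1.98 FPKM in stems (2.39 ± 0.20, adjusted p 7e-09). The level of the group was carried by catechol oxidase, the browning enzyme, whose 2 unigenes were both higher and were chosen after their values were seen: Cluster-12235.43804 had 2812, 2836 and 3082 FPKM in leaf buds, against 975, 1054 and 1355 FPKM in stems (1.29 ± 0.11, adjusted p 1.9e-08). The 2 lower members were decarboxylases (DDC, TDC) that make aromatic amines. Cluster-12235.9280 had 1.77, 1.06 and 1.23 FPKM in leaf buds, against 3.98, 6.28 and 5.33 FPKM in stems (-2.00 ± 0.36, adjusted p 0.00018). Cluster-12235.42500 had 0.93, 0.31 and 0.03 FPKM in leaf buds, against 0.91, 1.62 and 1.17 FPKM in stems (-1.58 ± 0.48, adjusted p 0.013). The second call was the less secure: the adjusted p was 0.069 without stem replicate 2 and 0.18 in DESeq2.

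Lists of dividing and green tissue were read next. Of the 20 DNA replication unigenes held, out of 104 on the authors' list, 19 were tested and 9 were higher in leaf buds, none lower, with a median log2 fold change of 0.93 (4 were higher without leaf bud replicate 2). All 3 leaf bud libraries lay above the stem libraries for 15 of the 19. Homologous recombination gave 5 higher and 1 lower of 18 tested, and mismatch repair 2 higher and none lower of 16. For photosynthesis 1 of 16 tested was higher and none was lower, and for the light-harvesting antenna proteins none of 18 was higher and 1 was lower, with 1 higher without leaf bud replicate 2 or without any single stem replicate. The antenna list summed to 6503 to 8995 FPKM in leaf buds, against 9611 to 10361 FPKM in stems.

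In the carbon fixation group 3 of 12 tested were higher and 3 lower. The rbcS unigene Cluster-12235.62198 had 24.6, 23.5 and 28.1 FPKM in leaf buds, against 4.89, 5.49 and 4.89 FPKM in stems (log2 fold change 2.25 ± 0.18, edgeR adjusted p 4.8e-09), with only 0.08 FPKM in mature leaves. A second, Cluster-12235.42084, had 158, 172 and 139 FPKM in leaf buds, against 105, 80.1 and 55.0 FPKM in stems (1.04 ± 0.19, adjusted p 0.00022), with 3069 FPKM in mature leaves, and was not called without leaf bud replicate 1 (0.94) or without stem replicate 3 (0.80). Carbonic anhydrase Cluster-12235.34421, which supplies carbon dioxide, had 28.7, 55.7 and 51.7 FPKM in leaf buds, against 169, 172 and 120 FPKM in stems (-1.80 ± 0.19, adjusted p 2.7e-07), with 5487 FPKM in mature leaves. So the rbcS copy that mature leaves nearly lack was the one with the larger change toward leaf buds. That copy, Cluster-12235.62198, was not limited to leaf buds. Its mean was 25.4 FPKM in leaf buds, 21.4 FPKM in roots and 17.4 FPKM in fruits.

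Sugar genes were called in both directions. The galactose and raffinose group gave 7 higher and 2 lower of 14 tested. From the authors' leaf bud list, made on these libraries, came 3 of the higher and both of the lower members, so that their difference was partly chosen. Galactinol synthase (GOLS), which starts raffinose synthesis, was higher for 2 of 3 unigenes and lower for Cluster-12235.42579, with 10.6, 10.8 and 19.9 FPKM in leaf buds, against 33.1, 34.1 and 37.0 FPKM in stems (log2 fold change -1.41 ± 0.16, edgeR adjusted p 7.9e-07). The nitrogen group gave 3 higher and none lower of 9 tested, among them glutamine synthetase Cluster-19618.1, with 8.08, 2.30 and 7.33 FPKM in leaf buds, against 0.05, 0.34 and 0.09 FPKM in stems (5.07 ± 0.61, adjusted p 2.9e-06). This glutamine synthetase unigene was near 0 in the other organs. It passed the filter through leaf buds and had to differ, so its call is a description only. Cyanate lyase (cynS), Cluster-12235.8719, had 8.24, 6.75 and 0.53 FPKM in leaf buds, against 0.15, 0.28 and 0.05 FPKM in stems (4.90 ± 0.83, adjusted p 0.00012). In cynS leaf bud replicate 3 was more than 10 times below the other leaf bud replicates and still above the stems.

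Several small complete pathway lists gave more lower than higher members, and they share most of those members: 14 unigenes, 5 of them lower and 1 higher, stand in all 5 of the lists that follow, among them the decarboxylases Cluster-12235.9280 and Cluster-12235.42500, which are therefore not separate observations. The anthocyanin list of 15 unigenes, 12 tested, gave 2 higher and 5 lower in leaf buds, with a median log2 fold change of -1.50, or -0.73 with members at 0 in an organ set to their bound. Isoflavonoid (16 tested) gave 1 higher and 7 lower, indole alkaloid (11 tested) 1 and 5, betalain (16 tested) 2 and 5, and flavone and flavonol biosynthesis (18 tested) 2 and 6. The counts moved without single libraries: the anthocyanin list gave 1 higher and 3 lower without leaf bud replicate 2, 1 higher without stem replicate 1 or 3, and 3 lower without stem replicate 2. Without leaf bud replicate 2, stem replicate 1 or stem replicate 3 the isoflavonoid and indole alkaloid lists gave 0 higher and the betalain and flavone and flavonol lists 1, and without leaf bud replicate 2 or stem replicate 2 the indole alkaloid and betalain lists gave 3 lower. In the anthocyanin list Cluster-12235.50813 had 47.1, 34.3 and 31.5 FPKM in leaf buds, against 6.44, 6.05 and 6.09 FPKM in stems (2.53 ± 0.17, edgeR adjusted p 4.5e-10), and in the flavone and flavonol list Cluster-12235.41623 had 78.2, 54.1 and 54.6 FPKM in leaf buds, against 13.6, 14.96 and 13.1 FPKM in stems (2.09 ± 0.14, adjusted p 3.9e-10). In both lists the most abundant member was thus higher in leaf buds, while most of the members called were lower.

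Part of the unigenes higher in leaf buds lay outside the cluster that held most of the unigenes. The identifiers of 53623 of the 57488 unigenes tested (93.3%) begin with Cluster-12235, the largest cluster of the assembly. Of the lower DEGs 93.6% did so, but of the higher DEGs only 76.0%. Among the 3865 unigenes tested outside that cluster, 1468 (38.0%) were higher in leaf buds and 297 (7.68%) were lower. Within the cluster 8.66% were higher and 8.04% lower. These shares depend in part on the filter. A faint unigene seen almost only in leaf buds entered the test through leaf buds and had to be called higher. Of the 494 higher DEGs at 0 in stems, 334 lay outside the cluster. The share of 38.0% was thus partly fixed by the filter, and how far was not tested. In a setting added once the data had been seen, p-values of the same fit were adjusted over the unigenes of Cluster-12235 alone. This gave 4627 higher and 4303 lower. As the fit was unchanged, these counts had to lie near the 4646 and 4311 already called within the cluster. The shares in the 2 directions were thus close to each other within the cluster. The 1468 unigenes summed to 2966, 2051 and 1748 TMM-normalized CPM (counts scaled to a common library size) in leaf buds, against 169, 177 and 178 in stems, 1075 to 1212 in mature leaves, 375 to 484 in fruits and 208 to 243 in roots. They were faint as a set, since the 4646 higher DEGs within the cluster summed to 120636, 116834 and 103773 CPM in leaf buds, against 29418, 30561 and 30424 in stems.

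**Figure D5:**
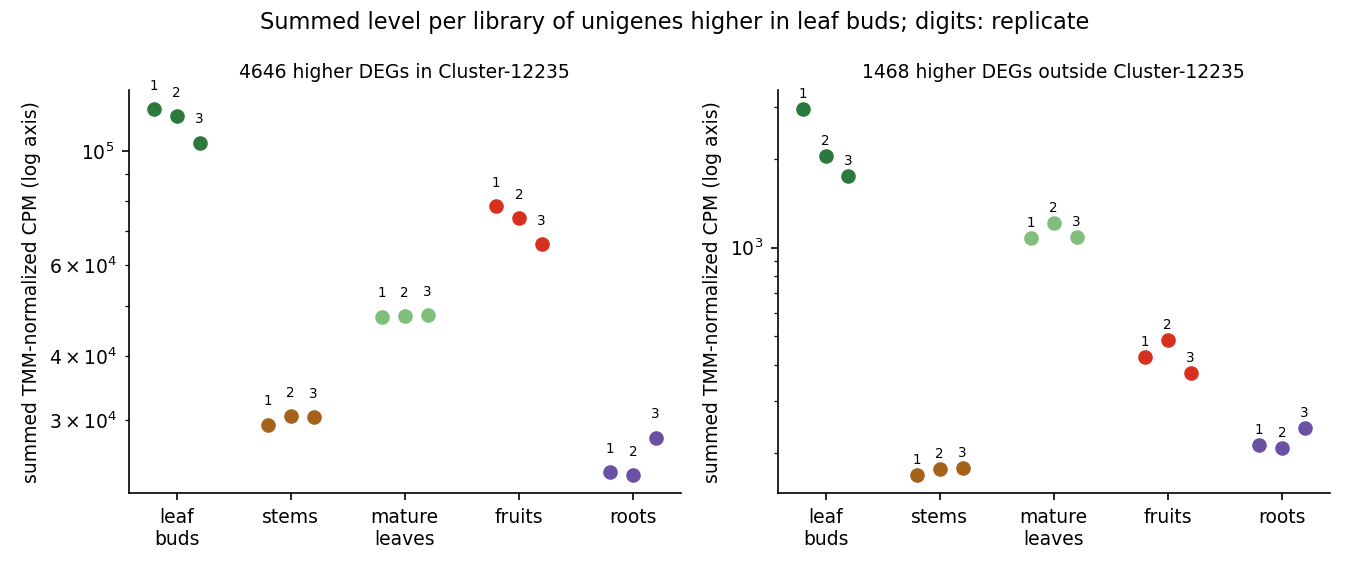
Summed TMM-normalized CPM (y axes, log scale) of the 4646 higher DEGs within Cluster-12235 (left) and the 1468 outside it (right) in each library, grouped by organ, with the replicate number beside each point. Outside the cluster the leaf bud libraries run from 1748 to 2966, against 169 to 178 in stems.

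The unigenes outside the cluster varied more between leaf bud replicates. The highest leaf bud library was at least 10 times the lowest for 444 of the 1468 (30.2%) outside the cluster, and for 270 of the 4646 (5.81%) within it. The lowest library was replicate 3 for 424 of the 444 and for 247 of the 270. Replicate 1 was the highest for 859 (58.5%) of the 1468. Among the lower DEGs such a spread over the stem libraries was seen for 11 unigenes within the cluster and 4 outside it. Without leaf bud replicate 3 the comparison gave 6451 higher and 5027 lower DEGs, and without replicate 1 it gave 5560 and 4376.

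Many role groups had tested members both inside and outside the cluster. Inside it lay 10 of 35 tested ribosomal proteins, 2 of 7 respiratory subunits and 10 of 18 antioxidant enzymes. The same held for 5 of 9 nitrogen, 10 of 14 galactose and raffinose, and 11 of 16 aldo-keto and aldehyde members. The ribosomal, respiratory, antioxidant and aldo-keto groups are described next. Of the 25 ribosomal protein unigenes on the authors' leaf bud list, 21 were at 0 in all stem libraries and all 25 were at 0 in roots. Together they summed to 13.8 to 87.4 FPKM in leaf buds and 0 to 0.60 FPKM in stems. Only 4 of the 25 passed the filter, all higher in leaf buds, which follows in part from the way they were listed. In the whole ribosomal group of 90 unigenes, 35 were tested, 15 were higher and none was lower, and 55 were too low to test. Its median log2 fold change was 2.93, or 0.87 with members at 0 in an organ set to their bound.

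The members of this group differed between leaf bud replicates. RPS20 (small subunit), Cluster-12235.9680, had 11.4, 12.4 and 0.39 FPKM in leaf buds, against 0, 0.20 and 0 FPKM in stems, a ratio of 119 with a 95% exact interval for counting error of 20.9 to 4720. RPS19, Cluster-23936.0, had 0.99, 2.55 and 0.99 FPKM in leaf buds and was at 0 in all stem libraries, at least 16.1-fold higher in leaf buds. This RPS19 unigene was near 0 in the other organs too and passed the filter through leaf buds, so its call is a description only. RPLP2, Cluster-28869.1, had 2.58, 1.14 and 5.0 FPKM in leaf buds, against 0.14, 0 and 0 FPKM in stems, a ratio of 62.0 (10.8 to 2486). Replicate 3 of leaf buds was the lowest for RPS20 and the highest for RPLP2.

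All 21 unigenes of respiratory chain and proton pump subunits came from the authors' leaf bud list. Since that list was made on these libraries and its members were near 0 in the other organs, those that passed the filter did so through leaf buds and had to differ: the 7 tested, all higher in leaf buds, are a description only. The 21 members summed to 56.2, 13.4 and 46.8 FPKM in leaf buds, against 0.46, 0.17 and 0.12 FPKM in stems, and to no more than 1.03 FPKM in a library of any other organ. V-ATPase subunit F, Cluster-12235.70718, had 3.17, 0.91 and 2.73 FPKM in leaf buds and was at 0 in stems, at least 50.8-fold higher in leaf buds. A pyrophosphatase (ppa), Cluster-22013.0, had 1.24, 1.36 and 0.88 FPKM in leaf buds and was at 0 in stems, at least 19.2-fold higher. Another, Cluster-9886.0, had 1.75, 0.79 and 1.95 FPKM in leaf buds and was at 0 in stems, at least 23.4-fold higher, but missed the threshold in DESeq2 (adjusted p 0.26). Leaf bud replicate 2 had the lowest sum of this list, and 11 members were called without it, and 12 without stem replicate 1, 2 or 3.

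The antioxidant group gave 10 higher and 4 lower of 18 tested. Of these, 6 higher and 3 lower members came from the authors' leaf bud list, made on these libraries, so that their difference was partly chosen. Catalase, which removes hydrogen peroxide, was higher for 6 of 7 unigenes tested, and superoxide dismutase for 3 of 4. SOD1, Cluster-20415.0, had 15.9, 5.99 and 12.2 FPKM in leaf buds, against 0.26, 0.12 and 0 FPKM in stems, a ratio of 90.6 with a 95% exact interval of 30.7 to 442. Catalase Cluster-25383.0 had 4.50, 3.32 and 0.57 FPKM in leaf buds, against 0.04, 0.06 and 0 FPKM in stems (log2 fold change 6.17 ± 0.76, edgeR adjusted p 3.8e-06). Of the 4 lower members 3 were glutathione transferases (GST), of which Cluster-12235.43195 had 24.4, 28.0 and 37.6 FPKM in leaf buds, against 77.2, 72.7 and 63.5 FPKM in stems (-1.29 ± 0.17, adjusted p 5.7e-06). The aldo-keto and aldehyde enzymes gave 8 higher and 2 lower of 16 tested, with 1 lower without stem replicate 3. From the leaf bud list came 4 of the higher and both of the lower members. AKR1A1 Cluster-22860.0 had 12.7, 4.09 and 8.43 FPKM in leaf buds, against 0.18, 0.11 and 0 FPKM in stems (6.26 ± 0.60, adjusted p 4.7e-07), and no other organ had a mean over 0.08 FPKM. An α-galactosidase, Cluster-5853.0, had 1.97, 0.77 and 1.51 FPKM in leaf buds, was at 0 in every library of all other organs, and its leaf bud level was at least 42.3-fold higher, though it missed the threshold in DESeq2 (adjusted p 0.20). SOD1 Cluster-20415.0, AKR1A1 Cluster-22860.0 and this α-galactosidase were near 0 in the other organs. They passed the filter through leaf buds and had to differ, so their calls are a description only. The sequences of the unigenes named in these groups were not examined. The part that their cluster and leaf bud replicate 3 have in the calls was not tested beyond the counts above.

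Many unigenes were at 0 in all libraries of an organ. Of the higher DEGs 494 were at 0 in stems, 219 of them with a mean of at least 1 FPKM in leaf buds, and 334 of the 494 lay outside Cluster-12235. Of the lower DEGs 131 were at 0 in leaf buds, 64 of them with a mean of at least 1 FPKM in stems, and 34 lay outside that cluster. In all other organs as well, 50 of the 494 and 1 of the 131 were at 0. Against the limit of 3 counts over the 3 libraries, the median lower bound was 17.6-fold for the 494 and 10.6-fold for the 131, and the largest were 278-fold and 786-fold. These numbers moved widely with the settings. The 494 became 2651 with no low-count filter, 157 with at least 1 CPM in 3 libraries and 182 with the 6 libraries alone, and the 131 became 243, 86 and 51. Without stem replicates 1, 2 and 3, when fewer libraries had to be at 0, there were 1219, 1290 and 1289 higher DEGs at 0 in stems, and without leaf bud replicate 2 there were 765. Without leaf bud replicates 1, 2 and 3 there were 209, 222 and 225 lower DEGs at 0 in leaf buds.

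The DEGs with the highest mean FPKM had no name in the tables used here. As FPKM corrects for unigene length, this order is not that of the counts. In stem replicate 1, Cluster-12235.42523 had 17145 counts at 12828 FPKM, and Cluster-12235.42261 had 78557 counts at 6068 FPKM. Cluster-12235.42577 had 16626, 21916 and 18182 FPKM in leaf buds, against 1967, 2019 and 2449 FPKM in stems (log2 fold change 3.14 ± 0.15, edgeR adjusted p 1.9e-12). Cluster-12235.42851 had 11648, 15133 and 13824 FPKM in leaf buds, against 1926, 1825 and 2045 FPKM in stems (2.80 ± 0.15, adjusted p 1.3e-11). Cluster-12235.42576 had 6803, 6463 and 6529 FPKM in leaf buds, against 947, 1044 and 447 FPKM in stems (3.04 ± 0.25, adjusted p 5.6e-09). Fruits also held high levels of all 3, with means of 19061, 15607 and 8536 FPKM in fruits and 2724, 2016 and 765 FPKM in roots. In the other direction, Cluster-12235.42523 had 1565, 2315 and 2283 FPKM in leaf buds, against 12828, 9708 and 11947 FPKM in stems (-2.34 ± 0.18, adjusted p 1.7e-09). Cluster-12235.42261 had 1527, 1926 and 2018 FPKM in leaf buds, against 6068, 5386 and 6189 FPKM in stems (-1.74 ± 0.16, adjusted p 2.8e-08). Cluster-12235.44127 had 204, 281 and 472 FPKM in leaf buds, against 3470, 3079 and 3192 FPKM in stems (-3.39 ± 0.24, adjusted p 7.7e-10). None of the 6 overlapped between leaf buds and stems.

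The largest changes among unigenes with at least 10 FPKM were also without a name. Cluster-12235.1373 had 0.03, 0 and 0 FPKM in leaf buds, against 160, 205 and 139 FPKM in stems, and no other organ had a mean over 0.65 FPKM. With 2 counts in leaf buds, the ratio of stems over leaf buds was 16842 at a 95% exact interval of 4662 to 139078. Cluster-12235.3096 was at 0 in all leaf bud libraries and at 14.5, 17.7 and 19.2 FPKM in stems, at least 786-fold lower in leaf buds, and had a mean of 15.9 FPKM in roots. Toward leaf buds, Cluster-12235.8873 had 5.57, 16.9 and 196 FPKM in leaf buds and 0 in all stem libraries, and Cluster-12235.7212 had 2.78, 9.03 and 54.1 FPKM in leaf buds and 0 in stems. They were at least 224-fold and at least 174-fold higher in leaf buds. Most of that level came from leaf bud replicate 3, so their fitted values had wide errors (SE of 1.97 and 1.65 on the log2 scale). Both were near 0 in the other organs too, passed the filter through leaf buds and had to differ, so their calls are a description only.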

How the data were processed

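RNA-seq was run on 15 libraries of *Z. armatum*, 3 each of leaf buds, stems, mature leaves, fruits and roots. The authors assembled the reads with Trinity into unigenes and deposited for each library an estimated count and an FPKM value per unigene; the sources used here do not give the aligner or the counter. Before testing, estimated counts were rounded to whole numbers. Stem files carry another code inside than in their labels, and samples were taken from the labels. The comparison, its members and all lists were chosen with earlier results of these data known. 

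A unigene was tested where edgeR's filterByExpr kept it over the 5 organs (minimum count 10, minimum total 15). All 15 libraries were fitted in edgeR 4.0.16 (R 4.3.3) with TMM scaling and the quasi-likelihood F test (10 residual degrees of freedom), leaf buds over stems, with Benjamini-Hochberg adjustment over 57488 unigenes. DEGs needed an absolute log2 fold change greater than 1 and an adjusted p below 0.05. Each SE was derived from the fold change and its F value. FPKM values, as deposited by the authors, are printed as levels and were not tested. A unigene at 0 in an organ was given a lower bound against 3 counts over its 3 libraries; ratios on 1 to 3 counts have exact 95% intervals that cover counting error only. Labels give separate samples of each organ, and each replicate mixed 3 plants, so p-values measure the spread between such mixtures. Names and pathway lists came from the authors' annotation tables, of which 12 of 39 pathway lists were complete. 

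Named were, per role group and direction, up to 3 DEGs without overlap and with a mean of at least 1 FPKM in the higher organ, by fold change; in each direction the 3 most abundant DEGs and the 2 largest changes at 10 FPKM or more; the largest change in each direction of complete lists; and the unigenes of the stem list or with primers. Other unigenes are marked as chosen after their values were seen. Some unigenes that the rule names are not reported here. Alternatives were other scalings, filters, DESeq2 1.42.0, the 6 libraries alone, a replicate block and each library left out. For the largest cluster alone, p-values of the main fit were adjusted over its unigenes. On simulated leaf bud and stem counts (54651 unigenes tested), 78 of 100 changed by 2.5-fold and 96 of 100 changed by 4-fold were called, all with the right sign, with 4 unchanged unigenes called.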

Additional observations from a re-analysis of the deposited data

How the results depend on the processing

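No unigene was called in opposite directions in the comparison and in the 13 refits with other scalings, filters, tests or libraries. At an absolute log2 fold change over 2 there were 5208 DEGs, 3300 higher and 1908 lower. With Cluster-12235 alone and p-values adjusted over it, a setting added once the data had been seen, there were 8930 DEGs. The other settings gave 9041 (at least 1 CPM in 3 libraries) to 13544 (no low-count filter, 8653 higher and 4891 lower), with 10308 in DESeq2, and leaving out 1 library gave 9936 to 11478 (5560 to 6580 higher, 4376 to 5027 lower). Of the DEGs, 81.8% to 97.9% were also called in each of these 13 refits. Higher DEGs were 57.0% of the total, 62.4% with library totals, 63.9% with no filter, 55.3% with DESeq2 size factors, 54.2% in DESeq2, 53.9% with at least 1 CPM, 53.7% with the 6 libraries alone and 51.8% within Cluster-12235. Mean r between leaf bud and stem libraries was 0.923 on log10(FPKM + 10), 0.811 as Spearman's rho and 0.897 over filtered unigenes alone. Higher ribosomal proteins were 31 with no filter and 5 with the 6 libraries alone, and higher antioxidant enzymes were 17 with no filter. Of 118 named unigenes tested, 102 kept their call or lack of one in every one of the 13 refits that tested them, of which the filter at 1 CPM tested 108 and the 6 libraries alone 111.

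Same-numbered leaf bud and stem libraries showed no shared deviation from their organ means, with r of -0.006, -0.036 and -0.032. Other pairs ran from -0.047 to 0.071. These values cannot tell whether same-numbered samples came from the same plants, which the labels do not say. With the replicate block there were 10494 DEGs, 5938 higher and 4556 lower, of which 10408 were shared with the fit without it.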

Other observations

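Differences under an absolute log2 fold change of 1 were not called whatever their p, and 20817 unigenes passed the adjusted p alone in edgeR. Names covered only unigenes in the authors' tables, so the groups describe those members and not the whole families.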
